A study of Mus musculus with 5 samples.

Results

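The genes described here encode 10 proteins of Nodal and bone morphogenetic protein (BMP) signalling, read on 5 arrays of RNA from mouse embryonic stem cells. They are the ligand genes Nodal and Bmp4, the antagonist genes Lefty1 and Lefty2, the co-receptor gene Tdgf1, the receptor genes Bmpr1a and Acvr2b, and the target genes Id1, Id2 and Id3. They were selected on their input signals in the 2 lysates and on their known roles, after results of these arrays were known, and taken by symbol from the platform's probe-to-gene table. Each had 1 probe set, and all 10 were among the 11502 genes kept for analysis, of 19937 genes with a probe set of their own. The comparison of inputs is therefore a description.

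RNA immunoprecipitation with array readout (RIP-chip) was run on R1 cells, a male embryonic stem cell line of 129X1 x 129S1 background derived from the inner cell mass of the blastocyst. Per the labels, 1 line expressed an N-terminal FLAG tag fused to MKRN1 (FLAG:MKRN1) and the other the FLAG construct without it (FLAG:Ctrl). Both constructs were driven constitutively by pCAGGS, and both lines were resistant to G418. Both were first thawed on mouse embryonic fibroblasts and then grown without feeders on gelatin in LIF and 15% serum, with no further treatment. The FLAG:Ctrl lysate gave an input array and an anti-FLAG RIP array. The FLAG:MKRN1 lysate gave an input array, an anti-FLAG RIP array and an IgG RIP array. With 1 array per group and 1 lysate per line, no difference below has a replicate error or a test. The construct, the clone and the culture cannot be told apart.

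Nodal and the related activins act through type I and type II serine kinase receptors, with Tdgf1 (Cripto) as the co-receptor for Nodal, and pass their signal to SMAD2 and SMAD3. The Lefty proteins are induced by Nodal signalling and block it, which makes a feedback loop. BMP ligands use other type I receptors, among them BMPR1A, and signal through SMAD1, SMAD5 and SMAD9 to induce Id genes. Id proteins hold back differentiation factors of the basic helix-loop-helix class. In embryonic stem cells grown with serum, BMP signalling and Id proteins are known to act beside LIF in self-renewal.

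Values are log2 signals, in which a difference of 1 is 2-fold. They compare the same gene between arrays and say nothing of one gene against another. Between the inputs, 2 of the 10 genes were at least 2-fold apart, Lefty1 higher and Bmp4 lower in FLAG:MKRN1. Of all kept genes, 1.67% were that far apart either way. Since the genes were chosen with this contrast in view, nothing is read from that count. The median difference of the 10 genes was -0.07, against 0.00 over all kept genes.

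**Figure D1:**
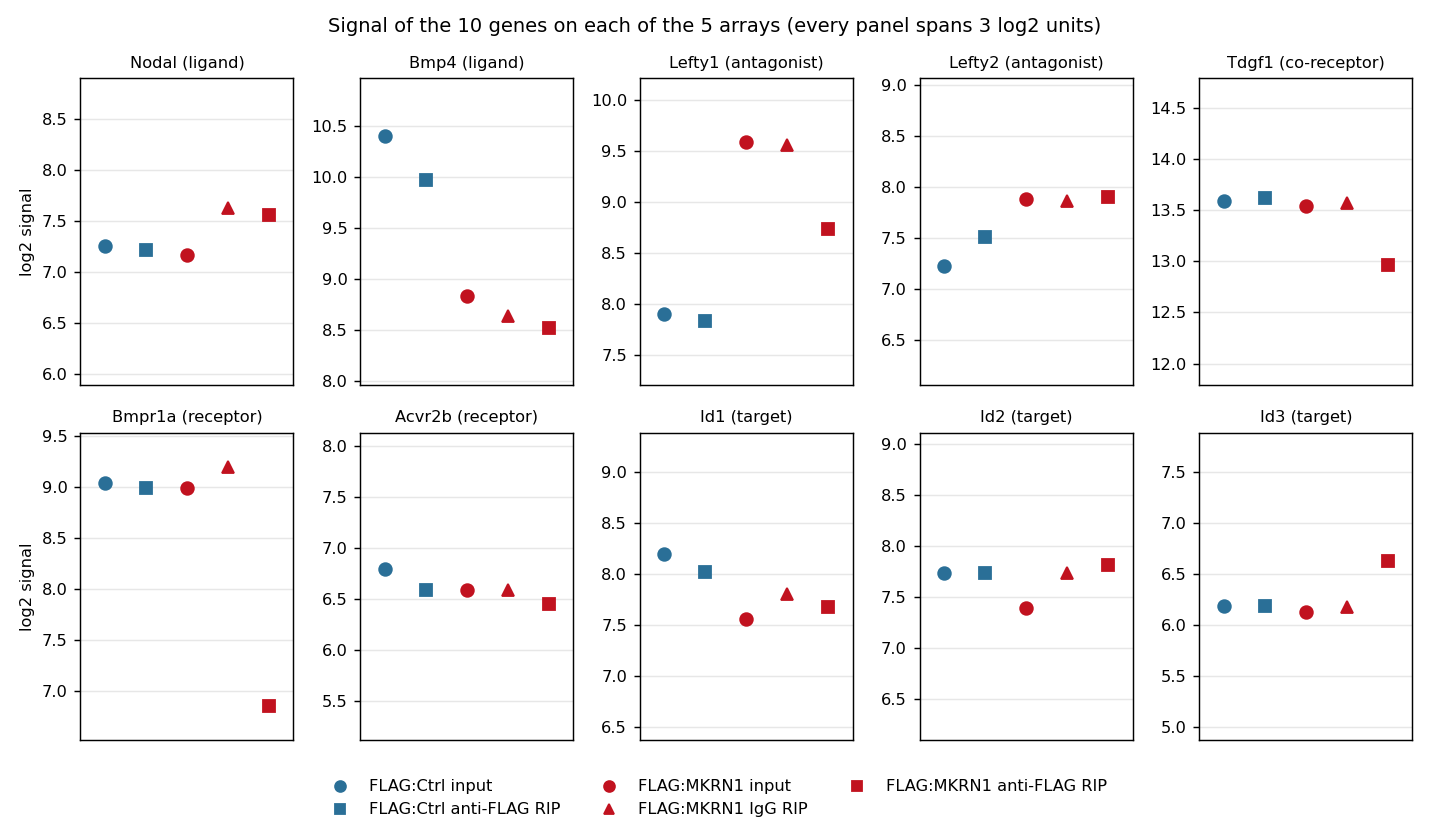
Log2 signal of each of the 10 genes on the 5 arrays, 1 point per array; the vertical axes differ in position but all span the same width. Lefty1 and Bmp4 differ by lysate (blue FLAG:Ctrl, red FLAG:MKRN1), and Bmpr1a is low on the anti-FLAG RIP array of FLAG:MKRN1 alone (6.85).

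Lefty1, a secreted inhibitor of Nodal, separated the lysates on every array. Its log2 signal was 7.90 in the FLAG:Ctrl input and 7.83 in the FLAG:Ctrl RIP. In FLAG:MKRN1 lysate it was 9.58 in the input, 9.56 in the IgG RIP and 8.74 in the anti-FLAG RIP. All 3 arrays of FLAG:MKRN1 lysate thus lay above both of FLAG:Ctrl, and the anti-FLAG RIP lay between the other arrays. The inputs differed by 1.69, or 3.22-fold, which ranked 22 of 11502 genes from the highest.

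A second contrast of the lysates is given by the control RIPs, made with IgG from FLAG:MKRN1 and with anti-FLAG from FLAG:Ctrl. It uses none of the input arrays, although the lysates are the same and the antibody differs as well. Lefty1 differed by 1.73 there, or 3.31-fold, and ranked 7 from the highest. Past 2-fold were 2 of the 10 genes, Lefty1 and Bmp4, against 0.452% of all kept genes. The genes were chosen with differences between the lysates in view, so nothing is read from this count either. Of the 101 genes at least 2-fold higher in the FLAG:MKRN1 input, 13 were also at least 2-fold higher between the control RIPs, which is 12.9% of the first list and 40.6% of the 32 in the second.

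Lefty2 lies beside Lefty1 in function and sequence, and an array may not keep such close relatives fully apart. It read 7.23 and 7.51 in the input and RIP of FLAG:Ctrl. In FLAG:MKRN1 it read 7.89 in the input, 7.86 in the IgG RIP and 7.90 in the anti-FLAG RIP. The lysates did not overlap, but the difference was smaller than for Lefty1, at 0.66 between the inputs and 0.35 between the control RIPs. Unlike Lefty1, Lefty2 differed by only 0.01 between input and anti-FLAG RIP of FLAG:MKRN1.

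Nodal itself did not separate the lysates. It read 7.26 and 7.22 in FLAG:Ctrl input and RIP, and 7.17, 7.62 and 7.56 in the FLAG:MKRN1 input, IgG RIP and anti-FLAG RIP. The inputs differed by -0.09, while the control RIPs differed by 0.40 in the other direction. Both RIPs of FLAG:MKRN1 lysate were above the input of that lysate, by 0.45 with IgG and 0.39 with anti-FLAG.

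Bmp4, the BMP ligand gene of the set, went the opposite way to Lefty1. It read 10.41 in the FLAG:Ctrl input and 9.98 in the FLAG:Ctrl RIP. In FLAG:MKRN1 it read 8.83 in the input, 8.64 in the IgG RIP and 8.53 in the anti-FLAG RIP. The lowest FLAG:Ctrl array lay 1.14 above the highest FLAG:MKRN1 array, the widest such gap among the 10 genes. The inputs differed by -1.57, so that Bmp4 was 2.98-fold lower in FLAG:MKRN1 and ranked 17 from the lowest. On the control RIPs it was 2.53-fold lower and ranked 5 from the lowest. Of the 91 genes at least 2-fold lower in the FLAG:MKRN1 input, 10 were also at least 2-fold lower between the control RIPs, which is 11% of the first list and 50% of the 20 in the second.

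Over the 10 genes, the arrays of FLAG:MKRN1 lay wholly above those of FLAG:Ctrl for Lefty1 and Lefty2, and wholly below for Bmp4, Id1, Tdgf1 and Acvr2b. The arrays of the lysates do not overlap in 9.77% of all kept genes. The choice of the genes used part of these arrays, so their count is a description. A gap of at least 0.5 was found for Lefty1 (0.84) and Bmp4 (1.14), and for 0.356% of all kept genes; the gaps of Tdgf1 and Acvr2b were 0.025 and 0.0025.

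The sequence upstream of Bmp4 is shown because this gene differed at least 2-fold between the lysates on both pairs of arrays. RefSeq windows in GRCm38.p6 matched 7 of the 10 genes: Nodal, Bmp4, Tdgf1, Bmpr1a, Acvr2b, Id2 and Id3. The window is chr14:46390670-46390919, minus strand, the 250 bases before the annotated start, written 5′ to 3′.
Bmp4: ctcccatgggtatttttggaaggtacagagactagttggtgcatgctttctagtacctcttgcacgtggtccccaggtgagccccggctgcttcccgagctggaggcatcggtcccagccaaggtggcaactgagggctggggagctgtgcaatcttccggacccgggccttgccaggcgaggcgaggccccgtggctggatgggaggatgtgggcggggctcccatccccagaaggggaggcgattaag
Searched on both strands were CAGAC, the core of a SMAD box, GGCGCC, a GC element bound by BMP-type SMADs, and AATNNACA, the letters bound by the Nodal partner FOXH1. None of them occurs in the Bmp4 window, which says only that these letters are absent from it. Over 32851 RefSeq windows of the same length, 42.2%, 9.59% and 10.9% held them. Tdgf1 had AATNNACA 2 times and CAGAC 1 time, with no shared bases. Id3 had CAGAC 2 times, Acvr2b had it 1 time, Id2 and Bmpr1a each had GGCGCC 1 time, and Nodal had none. A match is not a binding site.

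**Figure D2:**
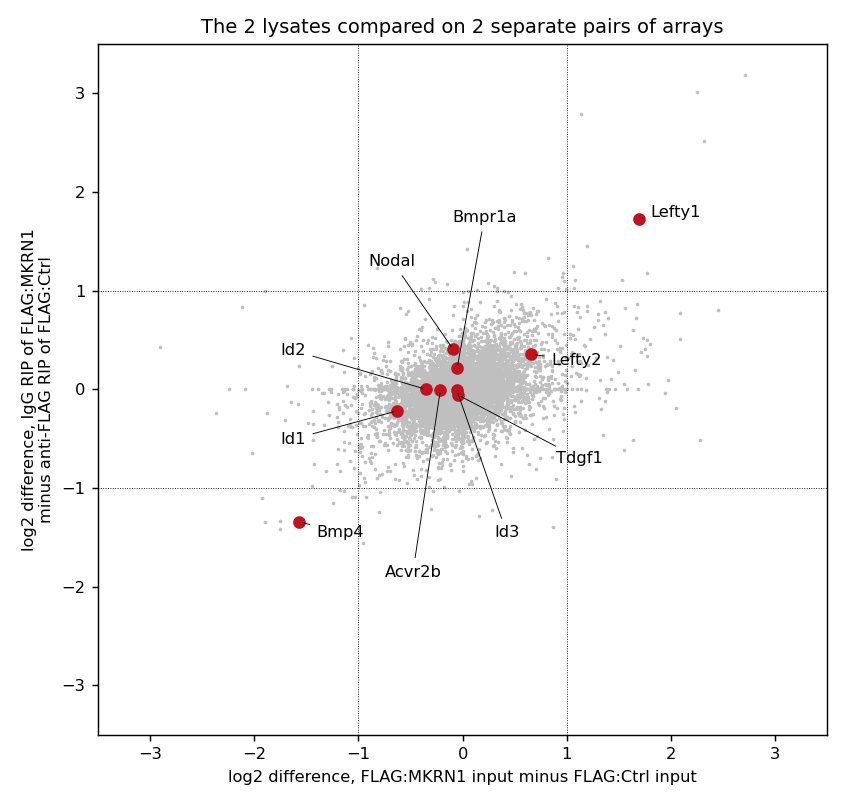
Log2 difference between the inputs (horizontal) against that between the control RIPs (vertical) for all kept genes in grey and the 10 genes in red; dotted lines mark 2-fold, and 3 genes lie outside the axes. Lefty1 lies at the upper right (1.69 and 1.73) and Bmp4 at the lower left (-1.57 and -1.34).

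Some markers of other cells also differed in this contrast. Primitive endoderm is the extra-embryonic layer next to the epiblast. Of its 10 measured markers 7 were kept, and their median was -0.33 between the inputs and -0.28 between the control RIPs. The mean log2 signal over all 10 was 6.77 and 6.85 on the FLAG:Ctrl arrays and 6.29 to 6.37 on the FLAG:MKRN1 arrays. Dab2, an endocytic adaptor gene, and Sparc, a matrix protein gene, were at least 2-fold lower in FLAG:MKRN1 on both pairs of arrays. Dab2 was 3.37-fold lower between the inputs and Sparc 2.20-fold. The laminin gene Lama1 was 1.53-fold lower there. Col4a1 differed by -0.22 between the inputs and by 0 between the control RIPs. The defining factor genes Gata4, Sox7 and Foxa2 differed by 0.04, -0.33 and -0.05 between the inputs, while Gata6, Sox17 and Pdgfra were below the level filter (a log2 signal of 5.76). Whether these cells had a part in the Bmp4 difference was not tested. In bulk RNA, fewer cells of a type and less RNA per cell cannot be told apart.

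Feeder fibroblast markers gave mean signals of 5.68 to 5.99 on the 5 arrays, with 6 of 10 kept. The median difference of the 6 was -0.07 between the inputs and 0 between the control RIPs. Among them Thy1 was 1.99-fold lower in the FLAG:MKRN1 input and 1.51-fold lower between the control RIPs. Its 8.84 in the FLAG:Ctrl RIP lay within the 8.25 to 8.93 of the FLAG:MKRN1 arrays, so the lysates overlapped. All 10 stem cell markers were kept, with mean signals from 9.87 to 10.2. Klf4, a factor of the naive stem cell state, was the member of that list at least 2-fold apart, 2.26-fold lower in the FLAG:MKRN1 input and 2.03-fold lower between the control RIPs. Markers of primed epiblast and mesendoderm had mean signals of 6.45 to 6.56. Trophectoderm markers had mean signals of 6.31 to 6.52. Of 4 measured neural markers 2 were kept, and Pax6 was at 7.57 and 6.41 in the inputs of FLAG:MKRN1 and FLAG:Ctrl, but differed by only 0.45 between the control RIPs.

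Mkrn1, the tagged gene, read 11.71 in the input of FLAG:MKRN1 and 11.80 in that of FLAG:Ctrl. Its probe set did not separate the lines, and whether it covers the construct is not known here. Directions drawn from the lines therefore rest on their labels, and the FLAG:MKRN1 anti-FLAG array is named the MKRN1-labelled RIP.

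The Id genes, the readout of BMP signalling in the set, were short of 2-fold between the lysates. Id1 read 8.19 and 8.02 in FLAG:Ctrl input and RIP, and 7.56, 7.80 and 7.67 in FLAG:MKRN1 input, IgG RIP and MKRN1-labelled RIP. All 3 FLAG:MKRN1 arrays lay below both FLAG:Ctrl arrays. The difference was -0.63 between the inputs and -0.22 between the control RIPs.

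Id2 differed by -0.35 between the inputs, at 7.74 in FLAG:Ctrl and 7.39 in FLAG:MKRN1. Its value was 7.74 on both control RIPs, equal within 1e-06 to the FLAG:Ctrl input, and 7.82 in the MKRN1-labelled RIP. Equal values on several arrays limit what small differences of this gene can show. Bmpr1a, Acvr2b and Id3 each had 1 pair of arrays with equal values. Id3 was nearly level on 4 arrays, from 6.13 to 6.19, and higher at 6.63 in the MKRN1-labelled RIP. Id3 thus differed by -0.06 between the inputs.

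The receptors showed no large difference between the lysates. Tdgf1 read 13.59 and 13.62 in FLAG:Ctrl input and RIP, and 13.55 and 13.57 in FLAG:MKRN1 input and IgG RIP. These values lie near the top of the array scale, whose highest value was 14.37, and whether the probe set was saturated is not known here. The inputs differed by -0.05 for Tdgf1 and by -0.05 for Bmpr1a. Acvr2b, an activin and Nodal type II receptor gene, ranged from 6.45 to 6.80 over the 5 arrays and differed by -0.21 between the inputs.

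Other genes of the pathway were taken from 7 lists with 65 genes, of which 62 were measured and 41 kept. Between the inputs none of the 41 was at least 2-fold apart, where 1.67% of all kept genes were. With so small a share, nothing is read from that count. Their median difference was 0.00. The genes named from here to the end of this paragraph were picked after their values were seen. Inhbb, which encodes an activin subunit, was lowest at -0.90 and differed by -0.70 between the control RIPs. Tgfb1, the TGF-beta ligand gene, followed at -0.81 and -0.31. Furin, a convertase gene that acts on ligand precursors, was highest at 0.61 but -0.29 between the control RIPs. Dusp9, a phosphatase gene induced by BMP signalling, was at -0.64 and -0.03. The inhibitory SMAD genes Smad6 and Smad7 were at 0.00 and -0.20 between the inputs, and at -0.24 and -0.74 between the control RIPs. Smad7 was the lowest of the 41 there. Gdf3, a Nodal-related ligand gene, was at 0.00 between the inputs and 0.48 between the control RIPs, the highest of the 41 there. None of the 41 passed 2-fold between the control RIPs either, where 0.452% of all kept genes did, and nothing is read from that count. All FLAG:MKRN1 arrays lay above both FLAG:Ctrl arrays for 1 of the 41 and below both for 7. The lysates do not overlap, by a gap of any size, in 9.77% of all kept genes.

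**Figure D3:**
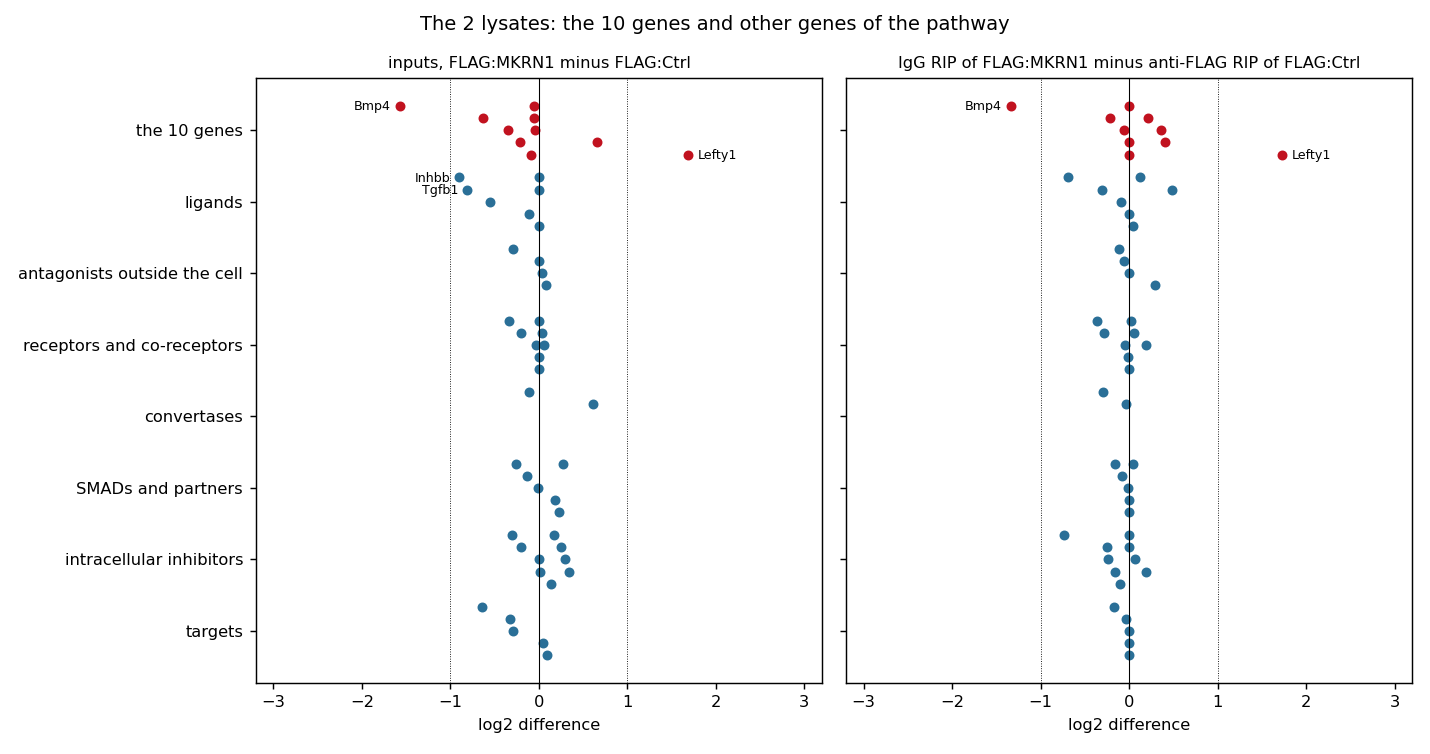
Log2 differences between the inputs (left) and between the control RIPs (right) for the 10 genes (red) and the 41 other kept genes of the pathway by list (blue), 1 point per gene; dotted lines mark 2-fold and genes at 0.75 or more are named. Only Lefty1 and Bmp4 of these genes pass 2-fold in either panel.

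Recovery with FLAG:MKRN1 was read by setting the MKRN1-labelled RIP against each control RIP. Bmpr1a, the type I BMP receptor gene, was the gene of the set at least 2-fold below both, and none was at least 2-fold above both. Of all kept genes, 5.41% were at least 2-fold below both and 1.10% above both, so 1 of 10 is near the background.

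Bmpr1a was level on 4 arrays, at 9.04 and 8.99 in FLAG:Ctrl input and RIP and 8.99 and 9.20 in FLAG:MKRN1 input and IgG RIP. In the MKRN1-labelled RIP it was 6.85. It was 5.09-fold below the IgG RIP, 4.39-fold below the FLAG:Ctrl RIP and, likewise, 4.39-fold below its own input. Among all kept genes it ranked 10 from the lowest against IgG and 26 against FLAG:Ctrl. The MKRN1-labelled array stood apart as a whole, with correlations of 0.959 to 0.967 with the other arrays over probe sets, against 0.982 to 0.992 among those. Genes at a given signal level also shifted on it. In the decile of kept genes by mean signal that holds Bmpr1a, the median difference was -0.24 from the FLAG:Ctrl RIP and 11.2% of genes were at least 2-fold lower. With the median of that decile subtracted, Bmpr1a differed by -1.89 from the FLAG:Ctrl RIP.

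The window upstream of Bmpr1a is given as that of the gene farthest below the control RIPs. It is chr14:34502547-34502796, minus strand, in GRCm38.p6, from RefSeq, with the 1 match to GGCGCC in capitals, which begins 198 bases before the start.
Bmpr1a: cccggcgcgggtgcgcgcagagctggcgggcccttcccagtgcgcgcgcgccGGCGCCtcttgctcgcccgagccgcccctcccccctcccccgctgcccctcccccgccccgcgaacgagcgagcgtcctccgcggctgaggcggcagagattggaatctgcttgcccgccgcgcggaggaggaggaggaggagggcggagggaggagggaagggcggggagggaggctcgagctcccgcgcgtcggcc
These arrays measured RNA, and nothing about this sequence was measured on them.

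Against the FLAG:Ctrl RIP, 2 of the 10 genes were at least 2-fold apart, Bmpr1a and Bmp4, both lower, where 8.73% of all kept genes were. Bmp4 was 2.73-fold lower there but only 1.08-fold lower than in the IgG RIP of the same lysate. With the input of its own lysate subtracted from each RIP, the Bmp4 difference was 0.13, the opposite sign. For Lefty1 the difference was -0.82 from the IgG RIP but 0.90 from that of FLAG:Ctrl. With the inputs subtracted, the Lefty1 difference between the anti-FLAG RIPs was -0.78, also the opposite sign. Against the IgG RIP, Bmpr1a alone of the 10 was at least 2-fold apart, where 8.47% of all kept genes were. On the RIP arrays Bmp4 and Lefty1 had the order of the lysates seen between the inputs. These comparisons share the MKRN1-labelled array and are not independent.

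Among the other genes, Tdgf1 was lower in the MKRN1-labelled RIP, at 12.96, than on the other 4 arrays, with differences of -0.66 and -0.61 from the control RIPs. In its decile of signal, the highest, the median differences were -0.24 and -0.25. Id3 was 0.44 and 0.45 above the control RIPs, where its decile had medians of 0.11 and 0.10. Id2 differed by 0.08 from each, Id1 by -0.35 and -0.13, Nodal by 0.34 and -0.06, and Acvr2b by -0.14 from each.

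Of the other pathway genes, Smad2 was the 1 of 41 at least 2-fold below both control RIPs, and none was above both. Of all kept genes, 5.41% were at least 2-fold below both and 1.10% above both, so nothing is read from these counts. The Smad2 protein carries Nodal and activin signals to the nucleus. Smad2 read 9.50 and 9.49 in FLAG:Ctrl input and RIP, 9.24 and 9.41 in FLAG:MKRN1 input and IgG RIP, and 7.90 in the MKRN1-labelled RIP. It was 3.01-fold and 2.85-fold below the control RIPs. In its decile of signal 15.7% of genes were at least 2-fold below the FLAG:Ctrl RIP. Also picked after the values were seen, Bmpr2, a type II BMP receptor gene, was 1.94-fold below the IgG RIP and 2.49-fold below that of FLAG:Ctrl. The median over the 41 genes was 0.00 and 0.02 against the control RIPs, and -0.03 and -0.00 over all kept genes.

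**Figure D4:**
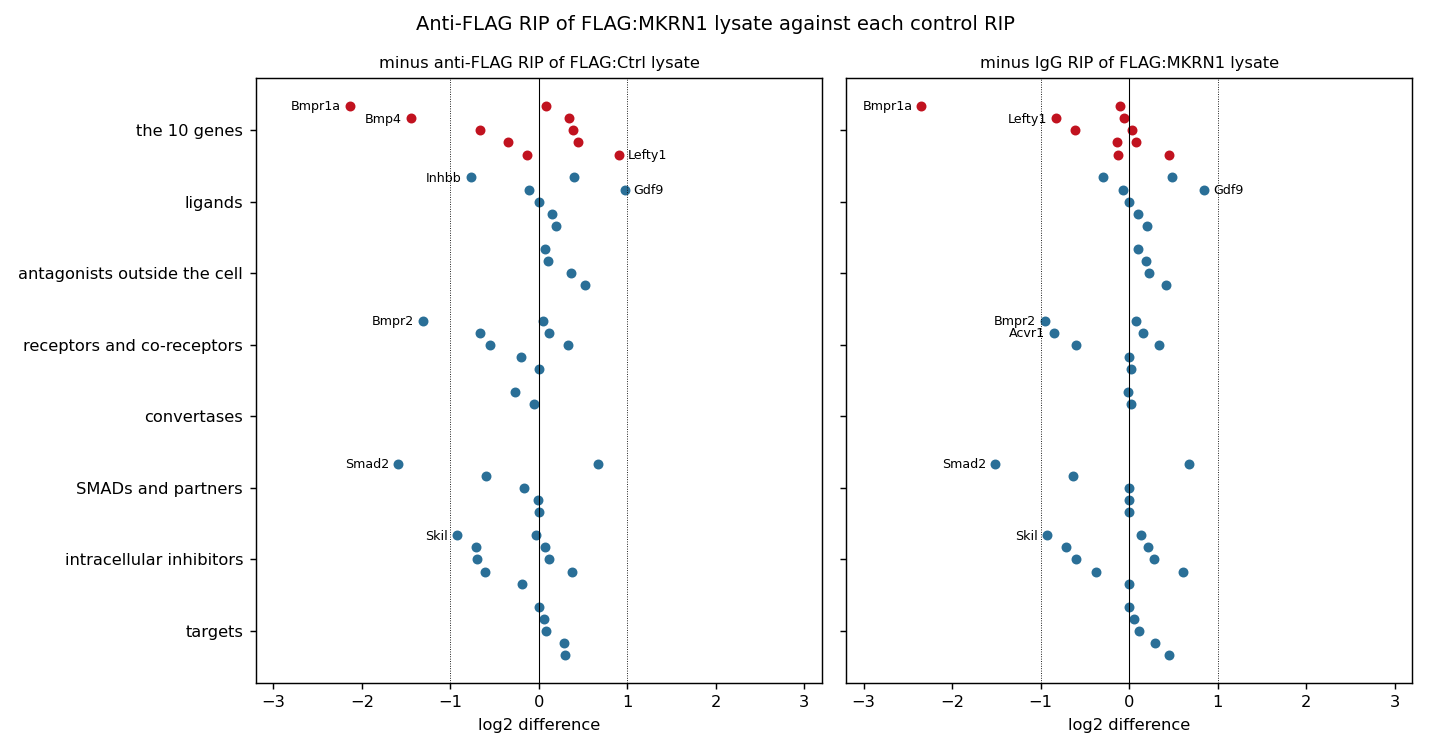
Log2 differences of the MKRN1-labelled RIP from the FLAG:Ctrl RIP (left) and from the IgG RIP (right) for the 10 genes (red) and the 41 other kept genes of the pathway (blue), 1 point per gene; dotted lines mark 2-fold and genes at 0.75 or more are named. Bmpr1a (-2.13 and -2.35) and Smad2 (-1.59 and -1.51) lie past 2-fold in both panels.

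Set against the input of its lysate, the MKRN1-labelled RIP held Bmpr1a alone of the 10 genes at least 2-fold apart (7.98% of all kept genes), at -2.13. Lefty1 was at -0.85 and Tdgf1 at -0.59, while Id3, Id2 and Nodal were at 0.50, 0.43 and 0.39. Of the other pathway genes, Smad2 (-1.34) and the inhibitor genes Skil (-1.18) and Pmepa1 (-1.02), the latter pair named after their values were seen, were at least 2-fold lower. None of the 10 genes was 2-fold from its input in the FLAG:Ctrl RIP (1.32% of all kept genes) or in the IgG RIP (1.78%). Their ranges were -0.43 to 0.28 and -0.20 to 0.45, with Bmp4 lowest in both.

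Genes whose signal over the 5 arrays was most like that of a member were sought for the members with the widest range, Bmpr1a (2.35) and Bmp4 (1.88). Likeness was the Euclidean distance between centred log2 values, among kept genes with a range of at least 1. Nearest to Bmpr1a were Fem1c (distance 0.077), Iars (0.18), Usp9x (0.22) and Taf2 (0.22). Nearest to Bmp4 were Sparc (0.49), Klf4 (0.51), Dab2 (0.60) and Spry4 (0.63). Sparc read 11.31 and 11.08 on the FLAG:Ctrl arrays and 10.03 to 10.17 on the FLAG:MKRN1 arrays. Spry4, a feedback inhibitor gene of FGF signalling, read 9.51 and 9.10, and 7.59 to 8.43.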

How the data were processed

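RNA of 5 samples was hybridised to Affymetrix arrays from 10 ng each, per the labels. The authors deposited 1 log2 value per probe set and array; the scale was read from the values, and how the authors corrected, summarised and normalized the signal is not stated in what was used here. Of 34760 probe sets, 21640 had 1 gene symbol in the platform annotation, 1321 several and 11799 none; 21553 matched RefSeq by gene ID. For each gene the probe set with the highest mean was taken, and genes with a mean at or above the median probe-set mean (5.76) were kept. Differences of log2 values were counted at 2-fold with python 3.11.15, pandas 2.3.3 and numpy 2.4.6, and the count was checked on simulated data. The simulated noise was narrower than the real spread between the inputs, so only the counting was checked. Array number limits the precision, and no test was run. Named were all 10 genes, pathway genes at least 2-fold apart between the inputs, between the control RIPs or from both control RIPs, and 4 genes by likeness for each of 2 members; other pathway genes are marked where they were picked after their values were seen. The members, lists and rules were chosen with earlier results of these data known. Alternatives covered scaling, the level filter, several probe sets of a gene, the fold, raised dim values, inputs subtracted from RIPs and, chosen after seeing the data, the median of the same decile of signal subtracted.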

Additional observations from a re-analysis of the deposited data

Results flagged for a closer look

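Nodal, Tdgf1 and Id1 differed in opposite directions between input and anti-FLAG RIP in the lysates, with 1 array each, and the difference was not tested. Nodal was at 0.39 in FLAG:MKRN1 and -0.04 in FLAG:Ctrl, but at 0.29 and 0.04 with arrays centred. Tdgf1 was at -0.59 and 0.03, but at -0.52 and -0.08 with the median of its signal decile subtracted. In these settings the direction was therefore the same in both lysates. Id1 was at 0.11 and -0.17, and its FLAG:MKRN1 value was 0.0033 with arrays centred. All values are short of 2-fold.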

How the results depend on the processing

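At 1.5-fold in place of 2-fold, 4 of the 10 genes were apart between the inputs, 4 between the anti-FLAG RIPs, 3 between the MKRN1-labelled and IgG RIPs and 3 between the MKRN1-labelled RIP and its input. At 4-fold the counts were 0 between the inputs, 1 between the anti-FLAG RIPs and 0 between the control RIPs. The shares of all kept genes at 1.5-fold and 4-fold were not computed, so nothing is read from these counts. With arrays centred on their medians, 2 genes were apart between the MKRN1-labelled and IgG RIPs, Lefty1 being the added one. With the inputs subtracted, the Bmp4 difference between the anti-FLAG RIPs turned positive, to 0.13. Lefty1 passed 2-fold against the FLAG:Ctrl RIP after quantile normalization (1.12) and with the median of its decile subtracted (1.21). In all 7 comparisons the counts equalled the reported ones with the filter at the 75th percentile, which left 7 of the 10 genes. They were also equal with no level filter, with the median over probe sets and with dim values raised to the filter. These last settings could not change a count, since each gene had 1 probe set and lay above the filter on every array. Of 396 recomputed differences of the 10 genes and Smad2, 372 stayed on the same side of 2-fold without a change of sign. A difference of 0 counted as no change of sign. Another 20 below 2-fold changed sign. The median over probe sets and the raised dim values gave 77 each of the 372, with values identical to the reported ones. Subtracting the decile median also changed nothing where that median was 0. This held for every gene between the control RIPs and for all but Tdgf1 between the inputs. The median of all kept genes in the MKRN1-labelled RIP moved on centring from -0.00 to -0.18 against IgG, from -0.03 to -0.23 against FLAG:Ctrl and from 0.00 to -0.11 against input. Bmpr1a was at -2.34 against the FLAG:Ctrl RIP in that setting. Among all calls against the FLAG:Ctrl RIP, higher genes were 18.5% as deposited, 7.5% centred and 32.3% after quantile normalization, and against the IgG RIP 18.1%, 7.4% and 31.1%. No paired analysis was possible because each group has 1 array.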
